A study of Homo sapiens with 12 samples.

Results

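Replication-dependent histone genes encode the core and linker histones that are made in bulk while a cell copies its DNA, and they were examined in LAD2, a human mast cell line, and HT-29, a line of human colorectal cancer cells. The genes were taken by name and type, as protein-coding genes named HIST1H, HIST2H, HIST3H or HIST4H in GENCODE release 29, and 71 of the 58721 genes in the count table met this rule. They comprised 6 H1, 17 H2A, 18 H2B, 15 H3 and 15 H4 genes, of which 55 lie on chromosome 6, 15 on chromosome 1 and 1 on chromosome 12. Levels are in CPM, the usual scaling of a gene's counts to its library's total, so that values of libraries of unequal depth can be compared. A mean of at least 0.5 CPM in either line grown alone was reached by 25 genes, namely 1 H1, 5 H2A, 12 H2B, 3 H3 and 4 H4 genes, and these were described one by one. Of the 25, 16 reached the threshold in both lines, 9 in LAD2 alone only and 0 in HT-29 alone only. HIST1H2BO at 0.547 CPM and HIST1H4E at 0.549 CPM lay just inside the threshold, and HIST1H2AI at 0.467 CPM and HIST1H1E at 0.404 CPM just outside it. No count was found in any library for 12 of the 71 genes.

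The study sequenced RNA from LAD2 cells in direct coculture with HT-29 cells, LAD2 cells alone, HT-29 cells in direct coculture with LAD2 cells and HT-29 cells alone, with 12 h as the time of coculture. Neither line carried a further treatment or allele according to the labels, HT-29 was kept in McCoy 5A medium with serum and LAD2 in SP34 medium, and the labels do not give how the lines were separated before extraction. Each group had 3 columns, but the 3 LAD2 coculture columns held the same count in every gene, so they were counted as 1 library and 10 distinct libraries remained. Whether replicates were separate cultures is not stated, and the p-values therefore reflect the spread between these samples, which may be technical.

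Histones package DNA into nucleosomes, with H2A, H2B, H3 and H4 forming the core particle and H1 binding the linker DNA. Most replication-dependent histone messages are not polyadenylated: their 3′ end is a short stem-loop that the stem-loop binding protein SLBP recognises, the message is cut just after it, and the message is degraded when DNA synthesis stops. Some of these genes also give longer, polyadenylated messages that read past the stem-loop, as is known from differentiated and non-cycling cells.

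The stem-loop is the sequence shared by these genes that bears most on what the counts can hold, so it was looked for in the annotation. The pattern had 16 bases, with GG at its start, CC at its end, TT, T and A at fixed places between and any base elsewhere. It was found within 150 bases after the stop codon, on the gene's strand, in 32 of the 36 histone genes with an annotated 3′ UTR. Of 19359 other coding genes with a 3′ UTR, 0.470% had it. In the 32 histone genes it began 23 to 68 bases after the stop codon, with a median of 37. Over the 32 sites the shared letters were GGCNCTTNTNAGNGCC, with N where sites differed. The letters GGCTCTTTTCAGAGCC were found in 17 of the 32 genes, all of the H2A, H2B or H3 class. The H4 genes had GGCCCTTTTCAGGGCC in 5 cases and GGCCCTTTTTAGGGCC in 3. The sites of the genes on which the results below turn are given here from the GENCODE release 29 transcripts (GRCh38), 5′ to 3′, with the stem-loop in capitals.
HIST2H2BE: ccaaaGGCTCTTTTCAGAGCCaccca
HIST3H2BB: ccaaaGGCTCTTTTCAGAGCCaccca
HIST1H2AC: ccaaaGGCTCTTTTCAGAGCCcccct
HIST1H2AG: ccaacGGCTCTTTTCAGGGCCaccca
HIST1H3E: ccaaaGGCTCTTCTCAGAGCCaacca
HIST3H2A: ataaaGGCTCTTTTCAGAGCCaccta
The 16 letters of HIST1H3E and those of HIST1H2AG were each found in no other member. Among the 25 genes kept, 20 had the stem-loop in the annotation, and 17 had an annotated transcript that ran at least 200 bases past it. Among the 46 genes not kept, 12 had the stem-loop and 5 had such a transcript. The median length of annotated exons was 1534 bases in the kept genes and 411 in the others. CPM is not scaled to gene length, so longer genes reach the threshold more easily, and the rule itself favours this contrast. The annotation ended at the stop codon, with no UTR, for 4 of the 25 kept genes and for 29 of the 46 others. Whether the libraries were made from polyadenylated RNA is not given in the sources used here. In a look at other RNAs made after the values were seen, the non-polyadenylated RNAs RN7SK, RMRP, RPPH1 and RN7SL1 were listed at 0 in every group. RN7SL2, of the same kind, was not at 0, with means of 0.907 CPM in LAD2 coculture, 2.30 CPM in LAD2 alone, 3.59 CPM in HT-29 coculture and 3.76 CPM in HT-29 alone. H2AFZ, a replication-independent histone gene with a polyadenylated message, stood alone at 282.2 CPM in LAD2 and at 513.9 CPM in HT-29, which was 1.79 and 13.7 times the sum of all 71 genes.

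Total counts ranged from 17229788 to 34142465 per library, so that a count of 0 allows up to 0.0879 to 0.174 CPM, which covers counting error only. The mast cell markers summed to 17755 CPM in LAD2 coculture and 18135 to 18476 CPM in LAD2 alone, against 235.5 to 256.6 CPM in HT-29 coculture and 33.1 to 33.6 CPM in HT-29 alone, where 8 of 10 were at 0, KIT and CPA3 among them. The epithelial markers summed to 1074 CPM in LAD2 coculture and 226 to 249 CPM in LAD2 alone, where CDH1, VIL1 and CDX2 were at 0, against 12789 to 13027 CPM in HT-29 coculture and 12523 to 13133 CPM in HT-29 alone. Over genes abundant in one line and nearly absent from the other, HT-29 RNA made up 5.26% of the LAD2 coculture library (327 genes). LAD2 RNA made up 1.11% ± 0.0737 (SD, n = 3) of the HT-29 coculture libraries (309 genes). Each share is a median over genes, and single genes can differ from it. Of the 7 epithelial markers with counts in LAD2 alone, 6 exceeded in LAD2 coculture what a blend with 5.26% of HT-29 RNA would hold. Their median was 1.29 times that level. A share other than 5.26% would move the mixture levels and the values after subtraction given below.

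The summed level of the 71 genes was lower in the LAD2 coculture library than in any LAD2 alone library, and hardly moved in HT-29. The sum was 138.4 CPM in LAD2 coculture, against 155.8, 158.1 and 158.9 CPM in LAD2 alone, a fall of 12.2% from the mean. HT-29 coculture had 40.6, 39.8 and 35.4 CPM and HT-29 alone had 33.7, 39.8 and 38.8 CPM, so these groups overlapped. A mixture of LAD2 alone with 5.26% of HT-29 RNA would hold 151.3 CPM. In such bulk samples, fewer cells of a type and less RNA per cell cannot be told apart.

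By class, the LAD2 coculture library lay below every LAD2 alone library in 4 of the 5 sums. H2B genes, which pair with H2A in the core particle, summed to 44.0 CPM in LAD2 coculture, against 53.2, 53.9 and 51.6 CPM in LAD2 alone. H2A genes summed to 62.0 CPM in coculture, against 65.4, 66.7 and 73.0 CPM alone. H3 genes summed to 6.54 CPM in coculture, against 8.43, 8.13 and 7.92 CPM alone. H1 genes stood at 21.6 CPM in coculture and at 22.4, 23.1 and 22.3 CPM alone, a distance of about the size that the mixture gives (21.6 CPM). H4 genes were the exception, with 4.30 CPM in coculture inside the alone range of 4.11 to 6.40 CPM. In HT-29, coculture and alone libraries overlapped in each of the 5 classes.

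**Figure D1:**
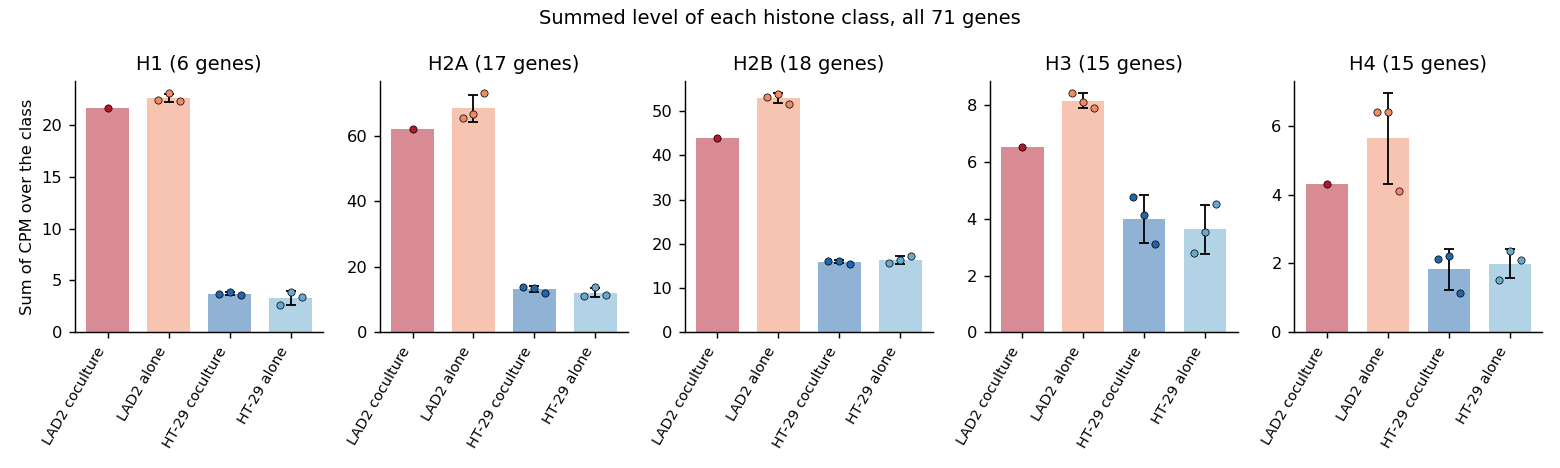
Sum of CPM over all genes of each histone class (linear axes from 0) in LAD2 coculture, LAD2 alone, HT-29 coculture and HT-29 alone. Points are libraries, bars are means and error bars are the SD of 3 libraries; LAD2 coculture has 1 library and no error bar. The LAD2 coculture point lies below the LAD2 alone points in H1, H2A, H2B and H3, while the HT-29 groups overlap.

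A few genes carried most of these sums. The 25 kept genes made up 97.3% of the summed CPM in LAD2 coculture and 97.1% in LAD2 alone, and 93.4% in HT-29 coculture and 91.8% in HT-29 alone. Of these, 4 genes, HIST1H2AC, HIST3H2A, HIST1H1C and HIST1H2BK, made up 64.9% in LAD2 coculture and 60.1% in LAD2 alone, and 50.6% in HT-29 coculture and 51.1% in HT-29 alone.

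The comparison of LAD2 with HT-29 when each grew alone gives the baseline of both lines. Counts of the histone genes were higher in LAD2, a line whose S phase genes were mostly lower than those of HT-29. How RNA was selected is not given, so these counts may leave out messages that end at the stem-loop. The 71 genes summed to 157.6 ± 1.60 CPM in LAD2 alone and 37.4 ± 3.25 CPM in HT-29 alone (SD, n = 3 each), 4.21-fold higher in LAD2. The ratio was 6.80 for the H1 genes, 5.63 for H2A, 3.23 for H2B, 2.82 for H4 and 2.25 for H3. Without any threshold, 47 of the 71 genes had the higher mean in LAD2, 12 in HT-29 and 12 had no counts. The extraction kits differed between the lines, micro columns for LAD2 and mini columns for HT-29, so line and kit cannot be told apart.

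Of the 25 kept genes, 22 passed the filter on low counts in this comparison, and 19 were higher and 0 lower in LAD2 (edgeR quasi-likelihood test, adjusted p under 0.05). Of all genes tested, 92.4% were called, 47.5% higher and 44.9% lower in LAD2. Genes kept through LAD2 alone only had to be higher there, so the 16 kept through both lines are the ones to read, and 13 of these were called higher. HIST1H2BC, HIST1H3G and HIST4H4 were not called. The call of HIST2H2AC, at 0.935 ± 0.143 CPM in LAD2 and 0.522 ± 0.153 CPM in HT-29, was lost without the second HT-29 alone library (log2 fold change 0.68, adjusted p = 0.0796) and in DESeq2 (0.84, adjusted p = 0.109).

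Per kilobase of annotated exons, the same gene led the H1, H2A, H2B and H3 classes in both lines. HIST1H2BK, an H2B gene, had 40.1 CPM per kb in LAD2 alone and 19.4 in HT-29 alone, but 50.5% of its 75-base stretches also occur in other genes, so its counts are uncertain. HIST1H1C, which encodes the linker histone H1.2, had 34.7 CPM per kb in LAD2 alone and 4.03 in HT-29 alone. HIST3H2A, an H2A gene of the chromosome 1 cluster, had 28.7 CPM per kb in LAD2 alone and 5.02 in HT-29 alone. HIST1H3H led the H3 genes with 2.64 CPM per kb in LAD2 alone and 0.951 in HT-29 alone. HIST1H4H led the H4 genes of LAD2 with 1.07 CPM per kb, and HIST1H4A, which was below the threshold, those of HT-29 with 0.351. HIST1H1C and HIST1H2BK are among the 4 kept genes annotated without a UTR, so their levels are per kb of coding sequence.

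Among the 16 genes kept through both lines, the difference was widest for HIST1H1C. It had 22.0, 22.8 and 22.1 CPM in LAD2 alone, against 2.30, 2.96 and 2.50 CPM in HT-29 alone. The groups were far apart, with a log2 fold change of 3.05 (SE 0.102, adjusted p = 1.46e-28). It was followed by HIST1H2AC (log2 fold change 2.69), HIST2H2BE (2.58) and HIST3H2A (2.48), each called. HIST3H2BB, an H2B gene at chromosome 1, 228458107 to 228460470 (GRCh38), was kept through LAD2 alone only, so its values are a description: 4.14, 3.99 and 3.63 CPM in LAD2 alone and 0.358, 0.264 and 0.348 CPM in HT-29 alone. The same holds for HIST1H4I, with 0.992 ± 0.281 CPM in LAD2 alone and 0.136 ± 0.121 CPM in HT-29 alone. At the other end, HIST1H2BC had 0.683, 0.433 and 0.575 CPM in LAD2 alone and 0.665, 0.469 and 0.522 CPM in HT-29 alone (log2 fold change 0.06, adjusted p = 0.872).

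**Figure D2:**
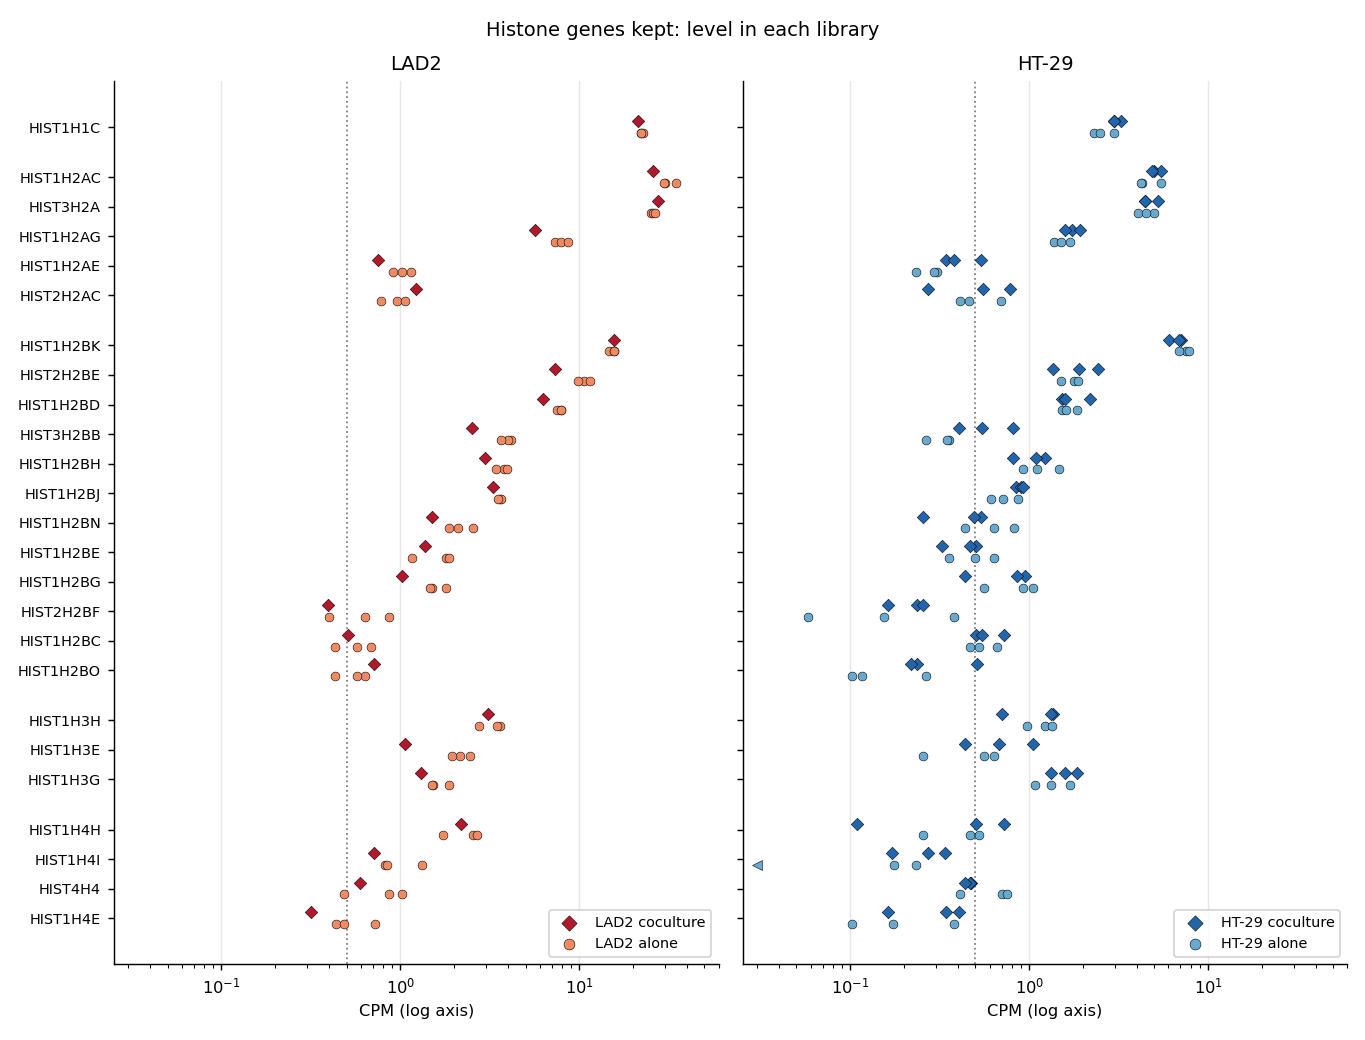
CPM (log axis) of the 25 kept histone genes in each library, by class, in LAD2 (left) and HT-29 (right). Diamonds are coculture libraries and circles are libraries of the line alone; the dotted line marks 0.5 CPM, and a triangle at the left edge marks a count of 0. LAD2 levels lie to the right of HT-29 levels for most genes, and in LAD2 many diamonds lie left of all 3 circles.

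What 12 h with cancer cells changed in the mast cell line was read by setting the LAD2 coculture library against the LAD2 alone libraries. Of the 25 kept genes, 5 fell and 0 rose in LAD2 coculture, which is 20% lower calls against 6.75% of all 15821 genes tested; of all genes, 20.8% were called and 14.1% were higher. The 5 genes that fell were the H2B genes HIST2H2BE and HIST3H2BB, the H2A genes HIST1H2AC and HIST1H2AG and the H3 gene HIST1H3E. The fitted change was below 0 for 21 of the 25 genes, with a median of -0.33 on the log2 scale against 0.0014 over all genes. Since the threshold was read on LAD2 alone and HT-29 alone, genes near it could more easily lie lower in coculture than higher; of the 5, HIST1H3E and HIST3H2BB were kept through LAD2 alone only. The spread came from the 3 LAD2 alone libraries, and the lone coculture library was assumed to vary like them.

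HIST2H2BE (chromosome 1, 149884459 to 149886652), an H2B gene with a long annotated 3′ UTR, had 7.33 CPM in LAD2 coculture, against 10.6, 11.5 and 9.77 CPM in LAD2 alone. The coculture library was below all 3. The log2 fold change was -0.54 (SE 0.142, adjusted p = 0.00378), and of 7 alternatives DESeq2 did not call it (adjusted p = 0.154).

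HIST1H3E (chromosome 6, 26224199 to 26227473), which encodes histone H3.1, had 1.06 CPM in LAD2 coculture, against 2.15, 2.45 and 1.95 CPM in LAD2 alone. These values rest on 27 counts in coculture and on 44, 51 and 44 counts alone. It fell by 1.04 on the log2 scale (SE 0.328, adjusted p = 0.0181), the largest fall among the 5. Without the second LAD2 alone library the adjusted p was 0.0513, and in DESeq2 it was 0.30.

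HIST1H2AC (chromosome 6, 26124145 to 26139116), the most abundant H2A gene of LAD2 alone by CPM, had 25.6 CPM in LAD2 coculture, against 29.98, 29.5 and 34.6 CPM in LAD2 alone. It fell by 0.30 (SE 0.0952, adjusted p = 0.0170). HIST1H2AG (chromosome 6, 27133042 to 27135291), another H2A gene, had 5.68 CPM in coculture, against 7.26, 7.89 and 8.67 CPM alone, a log2 fold change of -0.50 (SE 0.161, adjusted p = 0.0221). HIST3H2BB had 2.52 CPM in coculture, against 4.14, 3.99 and 3.63 CPM alone, a log2 fold change of -0.64 (SE 0.230, adjusted p = 0.0398). Its adjusted p was 0.128 without the first LAD2 alone library and 0.0591 without the second, and without the second the number of members that fell was 3. In each of these genes the coculture library was below all 3 alone libraries.

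RNA of HT-29 in the coculture library moves with these values, since the 25 kept genes had lower means in HT-29 alone than in LAD2 alone. The mixture at 5.26% would give log2 changes of -0.07 to -0.00157 over the 25 genes, with a median of -0.05. The observed level over the mixture level was 0.722 for HIST2H2BE, 0.509 for HIST1H3E, 0.855 for HIST1H2AC, 0.746 for HIST1H2AG and 0.676 for HIST3H2BB, with a median of 0.825 over the 25. After subtraction of the HT-29 share, HIST2H2BE and HIST1H3E were called, while HIST1H2AC (-0.23, adjusted p = 0.134), HIST1H2AG (-0.43, adjusted p = 0.0850) and HIST3H2BB (-0.55, adjusted p = 0.125) were not. DESeq2, which had 3 members at an unadjusted p under 0.05, called 0 of the 25.

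Counted by position alone, the coculture library was below all 3 alone libraries in 16 of the 25 genes, above them in 3 and within their range in 6. Over all genes tested, 30.6% were below and 37.8% above. These shares are not a like comparison for the 25. Of the 25, 9 were kept through LAD2 alone only, which makes a lower coculture value more likely. The mixture with HT-29 RNA also lowers all 25, by log2 changes of -0.07 to -0.00157. The 3 genes above the alone libraries were HIST3H2A, HIST2H2AC and HIST1H2BO, and the test called none of them. HIST3H2A had 27.4 CPM in coculture, against 25.01, 25.8 and 26.3 CPM alone (log2 fold change 0.08, adjusted p = 0.606). Of the other abundant genes, HIST1H1C had a log2 fold change of -0.07 (adjusted p = 0.682) and HIST1H2BK of 0.01 (adjusted p = 0.963), with intervals of -0.27 to 0.12 and -0.21 to 0.24. Among the abundant genes the values ran from HIST3H2A at 0.08 to HIST2H2BE at -0.54.

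**Figure D3:**
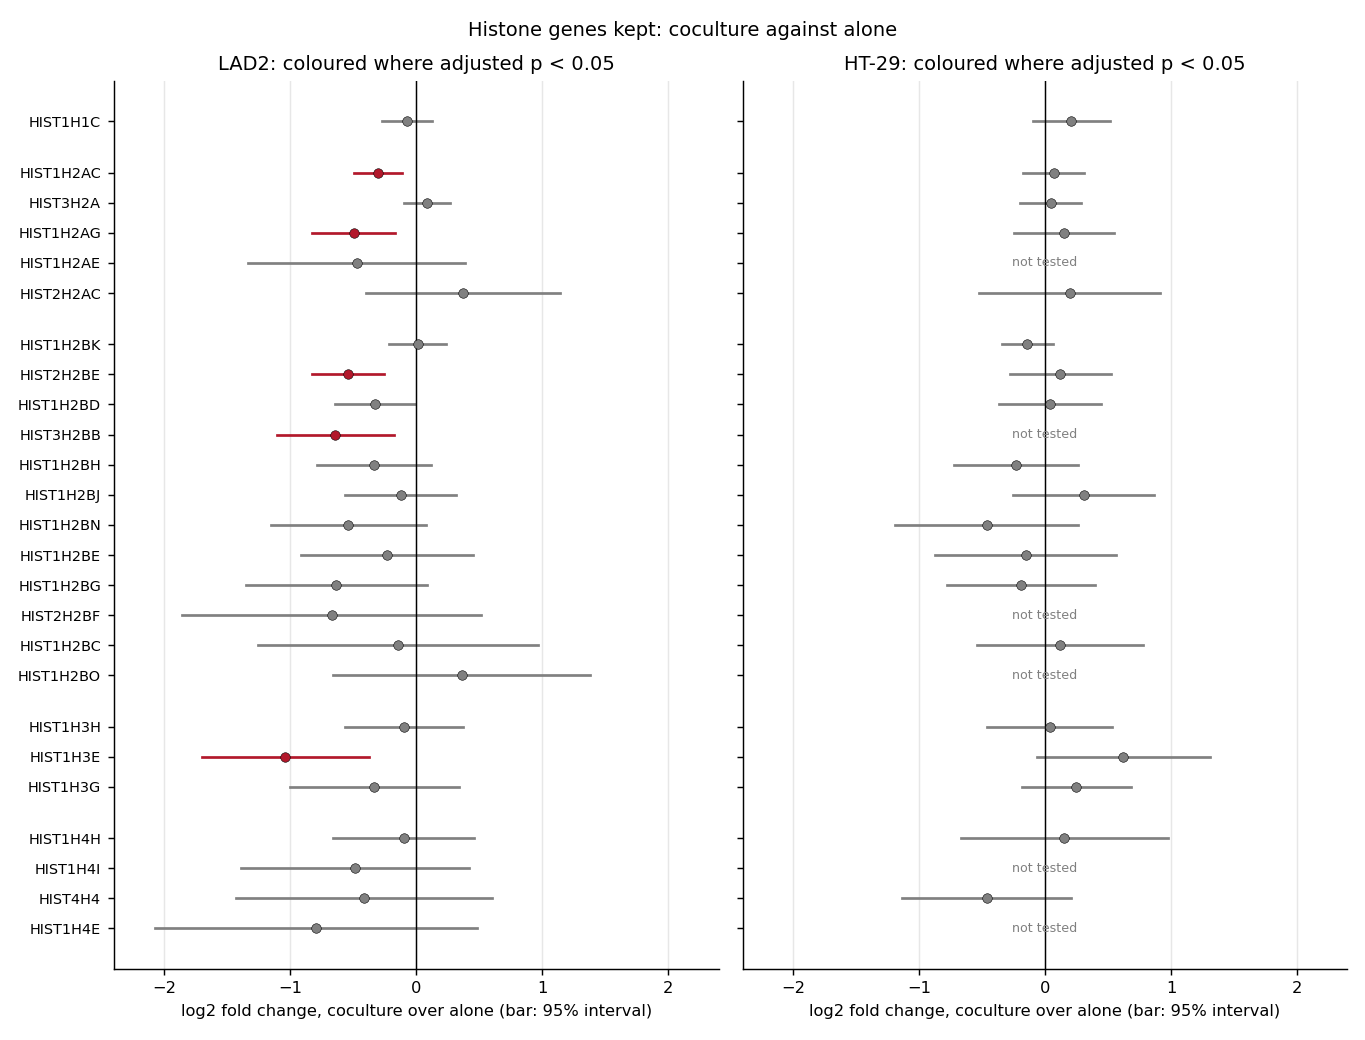
Log2 fold change of coculture over alone for the 25 kept histone genes in LAD2 (left) and HT-29 (right), with 95% intervals from the edgeR fit. Coloured points have an adjusted p under 0.05. HIST2H2BE, HIST3H2BB, HIST1H2AC, HIST1H2AG and HIST1H3E are coloured in LAD2 and no gene is coloured in HT-29, where 6 genes did not pass the filter on low counts.

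Of the 5 genes that fell, 4 belong to H2A and H2B pairs that start head to head and share the DNA between them. In all, 12 H2A and H2B pairs on opposite strands had starts within 1000 bases, and both genes were kept in 5. HIST1H2AK and HIST1H2BN are counted among the 12 but overlap (-579 bases between starts), so they share no DNA between them. HIST1H2BK, HIST1H2BN and HIST1H2BO were also kept, each paired with a gene that was not. Most kept H2A and H2B genes thus belong to a pair, so 4 of the 5 is no trait of the genes that fell. HIST3H2BB and HIST3H2A start 234 bases apart, and there were 0.0920 H2B counts for each H2A count in LAD2 coculture, against 0.166, 0.155 and 0.138 in LAD2 alone. HIST2H2BE and HIST2H2AC start 323 bases apart, and the ratio was 6.0 in LAD2 coculture, against 13.6, 12.0 and 9.21 alone, though HIST2H2AC had as few as 16 to 31 counts. In both pairs the coculture ratio lay below all 3 alone ratios. HIST1H2BJ and HIST1H2AG start 292 bases apart and went the other way, with a ratio of 0.583 in coculture and 0.497, 0.463 and 0.403 alone. HIST1H2BC and HIST1H2AC start 219 bases apart, and their ratio of 0.02 in coculture lay inside the alone range of 0.0147 to 0.0228. HIST1H2BG and HIST1H2AE had 1.37 in coculture, inside the alone range of 1.27 to 1.76. These 2 pairs also rest on few counts. HIST1H2BC had 13 counts in coculture and 14, 9 and 13 alone, and HIST1H2AE had 19 in coculture and 21, 19 and 26 alone. The ratios of the 5 pairs were not tested.

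**Figure D4:**
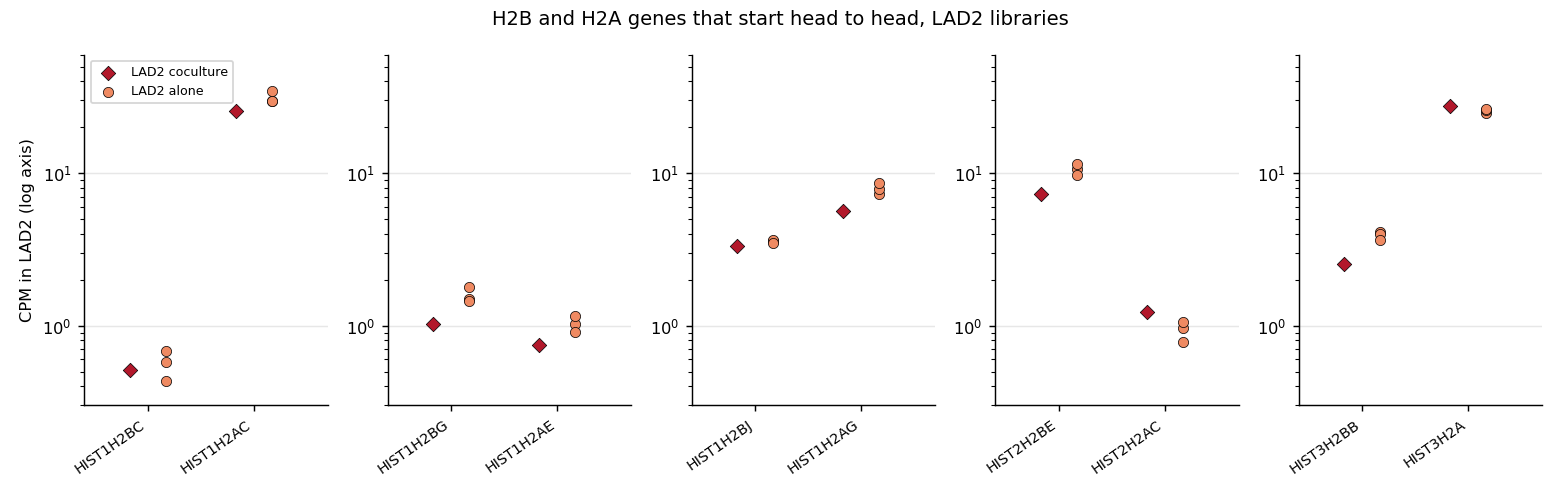
CPM (log axis) of the H2B and H2A genes of 5 head-to-head pairs in LAD2 libraries; diamonds are the coculture library and circles the 3 libraries alone. In the pairs of HIST2H2BE and of HIST3H2BB the H2B gene is lower in coculture while the H2A partner is not.

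The DNA before the start of 1 gene is shown for 4 of these pairs. The windows reach 250 bases before the start, so they leave out a part of the DNA between HIST2H2BE and HIST2H2AC (323 bases) and between HIST1H2BJ and HIST1H2AG (292 bases). In the first 3 of them the coculture ratio lay outside the alone range, and in the last it lay inside. Each line gives the RefSeq window (GRCh38.p14) of the named gene, from 250 bases before to 50 after its start, on its own strand. Capitals mark the octamer ATTTGCAT, the CCAAT box CCAAT and the TATA letters TATAA, each on either strand and overlaps joined.
HIST3H2BB, chr1:228457853-228458152, plus strand: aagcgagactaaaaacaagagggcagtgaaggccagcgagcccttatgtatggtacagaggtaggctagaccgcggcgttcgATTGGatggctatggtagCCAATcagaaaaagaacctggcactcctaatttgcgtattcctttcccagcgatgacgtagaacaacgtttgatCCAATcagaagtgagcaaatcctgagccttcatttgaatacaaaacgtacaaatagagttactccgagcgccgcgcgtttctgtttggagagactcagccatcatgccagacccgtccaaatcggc
HIST2H2BE, chr1:149886633-149886932, minus strand: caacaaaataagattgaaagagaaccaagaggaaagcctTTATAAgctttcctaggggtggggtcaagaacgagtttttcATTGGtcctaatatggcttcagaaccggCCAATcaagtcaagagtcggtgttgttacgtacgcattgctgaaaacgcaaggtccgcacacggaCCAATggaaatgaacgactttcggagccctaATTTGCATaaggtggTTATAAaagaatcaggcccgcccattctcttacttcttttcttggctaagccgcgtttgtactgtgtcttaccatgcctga
HIST1H2AG, chr6:27132793-27133092, plus strand: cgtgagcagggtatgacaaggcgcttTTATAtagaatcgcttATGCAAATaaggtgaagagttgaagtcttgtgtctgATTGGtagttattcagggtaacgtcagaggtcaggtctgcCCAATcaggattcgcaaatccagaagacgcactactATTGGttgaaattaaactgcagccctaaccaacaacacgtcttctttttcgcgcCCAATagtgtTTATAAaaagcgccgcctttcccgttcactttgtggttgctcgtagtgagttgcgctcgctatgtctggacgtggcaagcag
HIST1H2AC, chr6:26123922-26124221, plus strand: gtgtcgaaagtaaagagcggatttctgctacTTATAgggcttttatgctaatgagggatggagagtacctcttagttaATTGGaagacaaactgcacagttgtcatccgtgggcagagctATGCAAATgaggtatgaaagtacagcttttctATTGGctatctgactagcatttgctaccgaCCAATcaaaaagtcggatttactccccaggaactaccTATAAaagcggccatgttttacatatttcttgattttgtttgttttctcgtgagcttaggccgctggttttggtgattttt
The window of HIST3H2BB held the CCAAT letters 3 times and neither of the other motifs, while the other windows shown each held the octamer once. Windows were found for 61 of the 71 genes, the 25 kept ones included. The octamer, bound by the factors OCT1 and OCT2, was in 78.6% of the H2A windows and 75% of the H2B windows, in 0 of the H1 and H4 windows and in 1.77% of all 35116 windows of RefSeq genes. The CCAAT letters were in 84.6% of the histone windows against 34.6% of all windows, and the TATAA letters in 90.8% against 20.4%. A match is a description of the letters and not of a bound site.

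In HT-29 coculture against HT-29 alone, 0 of the 19 kept genes that passed the filter on low counts were called, against 8.76% of all 14070 genes tested (5.83% higher and 2.94% lower). None had an unadjusted p under 0.05 in edgeR, and DESeq2 likewise called 0 with 0 at an unadjusted p under 0.05. For 16 of the 19 the 95% interval lay within a 2-fold change either way. The smallest adjusted p, 0.311, belonged to HIST1H3E, which had 1.05, 0.682 and 0.435 CPM in HT-29 coculture, against 0.256, 0.556 and 0.638 CPM in HT-29 alone, so the groups overlapped (log2 fold change 0.62, SE 0.340). HIST1H1C was the only 1 of the 19 whose groups did not overlap, with 3.25, 2.98 and 2.99 CPM in coculture and 2.30, 2.96 and 2.50 CPM alone; of all genes tested, 15.6% lay above and 7.83% below in this way. Its log2 fold change was 0.21 (adjusted p = 0.493), and a mixture with 1.11% of LAD2 RNA would give 0.12. HIST2H2BE, which fell in LAD2, had 1.89, 2.43 and 1.36 CPM in HT-29 coculture and 1.79, 1.87 and 1.51 CPM in HT-29 alone (log2 fold change 0.12, interval -0.28 to 0.52).

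Whether the responses of the lines differed was tested in 1 fit of all 10 libraries, with the HT-29 change taken from the LAD2 change. Of the 25 kept genes, 2 had a lower response in LAD2 and 0 a higher one. That is 8% lower, near the 7.11% of all 17435 genes tested, of which 40.8% were called. Both genes, HIST1H3E and HIST3H2BB, were kept through LAD2 alone only, and the LAD2 alone values enter the difference. The split over all genes depended on the scaling. It was 5877 higher to 1240 lower with TMM factors and 3343 to 1763 with RLE factors, with a median over all genes of 0.17 and 0.03 (log2), and it turned to 2038 higher and 2716 lower without the first HT-29 alone library, to 2061 and 2741 without the third and to 1954 and 2962 without the third HT-29 coculture library. HIST1H3E differed by -1.48 (SE 0.486, adjusted p = 0.0109), or by -1.66 relative to the median of all genes. HIST3H2BB differed by -1.33 (SE 0.449, adjusted p = 0.0133), or by -1.51 relative to that median. HIST3H2BB had 0.406, 0.810 and 0.544 CPM in HT-29 coculture, above the 0.358, 0.264 and 0.348 CPM of HT-29 alone, and it did not pass the filter in HT-29 by itself. The number of members with a lower LAD2 response was 5 without the first or the third HT-29 alone library or the third HT-29 coculture library, and 1 without the second HT-29 alone library or the first or second HT-29 coculture library. Without the first HT-29 coculture library, HIST1H3E differed by -1.06 (adjusted p = 0.121), and without the second one HIST3H2BB differed by -1.01 (adjusted p = 0.108). Without the second HT-29 alone library, HIST3H2BB differed by -1.15 (adjusted p = 0.0713). HIST2H2BE (-0.49, adjusted p = 0.101), HIST1H2AG (-0.47, adjusted p = 0.130) and HIST1H2BK (0.33, adjusted p = 0.0610) were the next in order and were not called. With RLE factors HIST2H2BE was called as well (-0.63, adjusted p = 0.0418).

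Genes that act with the replication-dependent histones were counted from lists. The lists overlap, so their counts are not separate. SLBP, CCNE1 and CCNE2 are in the S phase and processing lists, and MCM2 and CHAF1B in the S phase and chaperone lists. Among 46 S phase genes tested in LAD2, 38 rose and 0 fell in coculture, with a median log2 fold change of 0.37; over all genes tested 14.1% rose. MCM4, a subunit of the replicative helicase, had 135 CPM in LAD2 coculture, against 83.4, 85.6 and 83.7 CPM in LAD2 alone (log2 fold change 0.67, SE 0.0648, adjusted p = 1.97e-11). UNG, which removes uracil from DNA, had 42.8 CPM in coculture and 26.8, 28.6 and 28.2 CPM alone (0.61, adjusted p = 9.83e-08), and MCM7, MCM5, MCM3 and MCM6 also rose, by 0.48 to 0.51. These genes are more abundant in HT-29, where 42 of the 46 were higher than in LAD2 with each line alone, against 44.9% of all genes tested. The mixture at 5.26% gives the list a median of 0.12. For the genes named it gives 0.35 for MCM4, 0.37 for UNG, 0.22 for MCM7, 0.18 for MCM6, 0.12 for MCM3 and 0.06 for MCM5. The observed level was 1.26 times the mixture level for MCM4 and 1.19 times for UNG. After subtraction of the HT-29 share, 26 were called higher, DESeq2 called 23, and with 1 LAD2 alone library left out 32 to 41 were called. In HT-29 coculture 0 of the 46 S phase genes rose and 2 fell, against 2.94% of all genes that fell. The 2 were CDC6 (-0.09, adjusted p = 0.0184) and CCNA2 (-0.08, adjusted p = 0.0363). The number that fell was 0 in DESeq2, after subtraction of the LAD2 share, and without the second alone or the third coculture library. It was 1 without the first alone or the first coculture library.

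Of 36 tested genes for histone gene transcription and histone message processing, 10 rose and 0 fell in LAD2 coculture, against 14.1% of all genes that rose. The number was 4 in DESeq2, 8 after subtraction of the HT-29 share and 9 to 12 with 1 LAD2 alone library left out. SLBP, which binds the stem-loop, had 98.4 CPM in LAD2 coculture, against 84.0, 82.1 and 87.8 CPM in LAD2 alone (log2 fold change 0.21, SE 0.0687, adjusted p = 0.0262). ERI1, a 3′ exonuclease that trims and degrades histone messages at the stem-loop, had 38.2 CPM in coculture, against 25.9, 25.7 and 27.7 CPM alone (0.52, SE 0.0852, adjusted p = 4.80e-06). HT-29 holds less ERI1 than LAD2, with 17 CPM alone, so the mixture gives 25.9 CPM. SNRPF, CDC25A, CDK2, POU2F1 and SNRPB also rose, by 0.27 to 0.55. The mixture gives 0.26 for CDC25A, 0.17 for SNRPF, 0.12 for CDK2, 0.07 for SNRPB, 0.06 for SLBP and 0.04 for POU2F1. POU2F1 encodes OCT1, and its level was 36.0 CPM in coculture and 28.3 ± 0.420 CPM alone. NPAT, the coactivator of histone gene transcription, had 40.1 CPM in coculture and 38.5, 39.3 and 39.3 CPM alone (0.03, adjusted p = 0.860). In HT-29, SLBP had 148.3, 149.9 and 148.6 CPM in coculture and 147.9, 146.9 and 149.6 CPM alone (adjusted p = 0.957), and NPAT had an adjusted p of 0.487. There 0 of the 36 rose and 1 fell, NCBP1 (-0.08, adjusted p = 0.0398), against 2.94% of all genes that fell. The NCBP1 call was lost in DESeq2, after subtraction of the LAD2 share, without the second alone library and without the first or second coculture library.

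Of 27 tested histone chaperone genes, 6 rose and 0 fell in LAD2 coculture, against 14.1% of all genes that rose. The number was 4 after subtraction of the HT-29 share. Without the third LAD2 alone library it was 9 higher and 2 lower, and 5 to 6 were higher without the others. MCM2, which also binds H3 and H4, NASP, which holds free H3 and H4, SSRP1, a subunit of FACT, CHAF1A and CHAF1B of the assembly factor CAF-1 and ASF1B rose by 0.34 to 0.41. The mixture gives 0.25 for SSRP1, 0.24 for NASP, 0.11 for CHAF1B, 0.10 for MCM2, 0.06 for CHAF1A and 0.04 for ASF1B. The observed level of SSRP1 was 1.08 times its mixture level. NASP had 96.2 CPM in coculture and 71.6, 71.9 and 72.8 CPM alone, against a mixture level of 85.0 CPM. In HT-29, 0 of the 27 rose and 1 fell, against 2.94% of all genes that fell. It was HAT1, which acetylates new H4 and fell by 0.11 (adjusted p = 0.00202). The medians of these lists in LAD2 were 0.09 for transcription and processing and 0.08 for chaperones.

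Of 10 tested replication-independent histone genes, 5 rose and 0 fell in LAD2 coculture, against 14.1% of all genes that rose. The number was 3 after subtraction of the HT-29 share and 4 to 7 with 1 LAD2 alone library left out. H1F0, the linker histone of non-dividing cells, had 869 CPM in LAD2 coculture, against 651, 637 and 672 CPM in LAD2 alone (log2 fold change 0.40, SE 0.0619, adjusted p = 1.68e-06), while HT-29 alone had 419 CPM. H2AFY (macroH2A) rose by 0.23 (adjusted p = 0.00561) and H2AFX by 0.19 (adjusted p = 0.0263), where the mixture gives 0.10 and 0.06. The other two, H1FX and H2AFJ, had 13.0 and 3.35 CPM in LAD2 coculture and 0.395 ± 0.132 and 0 CPM in LAD2 alone, and their coculture levels were 7.07% and 6.38% of those in HT-29 alone. In HT-29, 0 of 10 were called, against 8.76% of all genes tested.

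**Figure D5:**
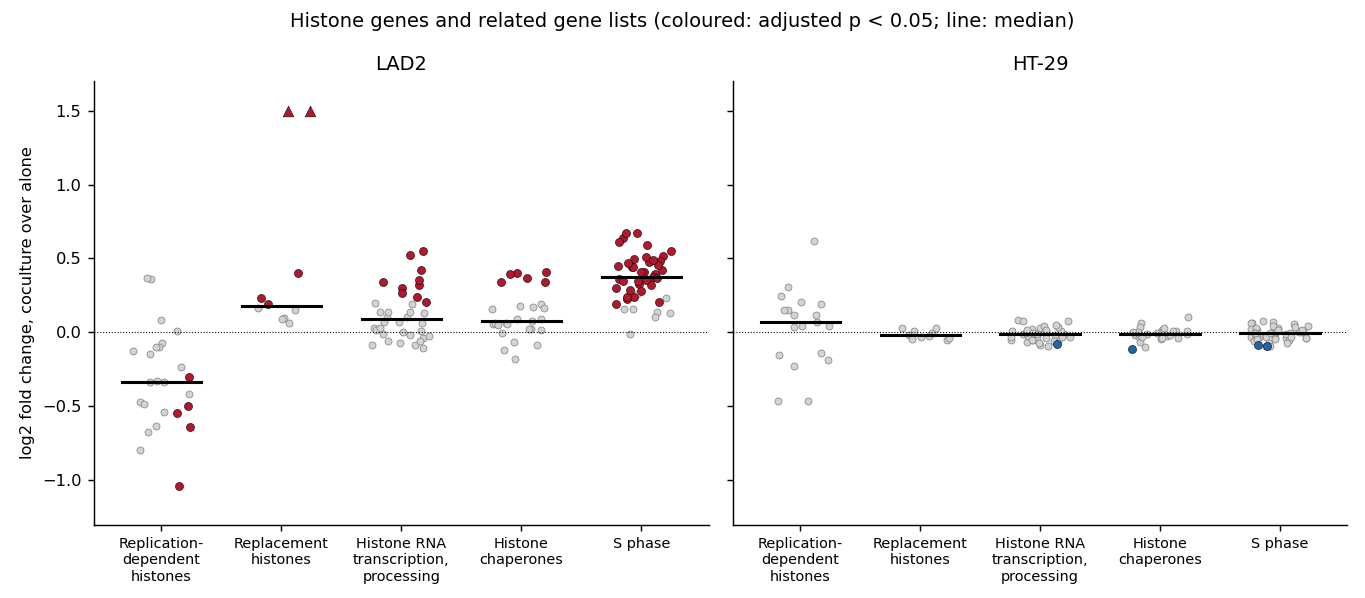
Log2 fold change of coculture over alone for the kept replication-dependent histone genes and 4 related gene lists in LAD2 (left) and HT-29 (right). Coloured points have an adjusted p under 0.05, lines are medians, and triangles at the upper edge are H1FX and H2AFJ, whose values lie above the axis. In LAD2 the histone genes have a median of -0.33 and the S phase genes of 0.37; in HT-29 all medians lie near 0.

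By position, the members of the large chromosome 6 cluster between 26017085 and 26285638, with 12 kept genes, summed to 66.4 CPM in LAD2 coculture and 78.8 CPM in LAD2 alone. The chromosome 1 cluster between 149782689 and 149887916 summed to 9.07 CPM in coculture and 12.4 CPM alone. The cluster of HIST3H2A and HIST3H2BB summed to 29.96 CPM in coculture and 29.6 CPM alone, since HIST3H2A holds most of it. The genes that fell were spread over 4 clusters, 2 of them in the large one, HIST1H2AC and HIST1H3E. HIST1H2BD, HIST1H2BE, HIST1H2BN and HIST2H2BF overlap genes on the opposite strand, and since the strand setting of the counts is not given in the sources used here, their counts are uncertain; none of them was called in a coculture comparison.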

How the data were processed

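The authors deposited raw counts per gene for 12 columns; how reads were counted, on which annotation and strand, and how RNA was selected is not given in the sources used here. Per the submitters' processing notes the build was hg38, and STAR 2.7.10a, FastQC 0.11.9 and DESeq2 3.24.0 were used. Genes were matched to GENCODE release 29 by the first 15 characters of their identifiers. Counts were fitted with TMM factors in edgeR 4.0.16 (R 4.3.3). Genes passing filterByExpr were tested by quasi-likelihood, two-sided, with Benjamini-Hochberg adjustment over all of them; an adjusted p under 0.05 was called. SE is the log2 fold change divided by the square root of F. Each comparison was fitted on its own groups, and the difference of responses as an interaction over 10 libraries. Replicates varied by 1.7% (HT-29 fit) and 4.03% (LAD2 fit), as the common biological coefficient of variation. Scripts were tested on simulated data.

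The other line's share was the median, over genes that reached 50 CPM in the other line alone but not more than 0.5 CPM in the line studied, of the added level divided by the other line's level; a mixture is the line alone blended at this share. Alternatives were RLE factors, DESeq2 1.42.0, no filter, a replicate block, each library left out and subtraction of the other line's RNA.

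Members, lists and tests were chosen with earlier results of these data known. Named with values were members called in a coculture comparison, the top member of each class per kb in each line, the 6 with the largest difference between lines, those with the smallest adjusted p of the difference, SLBP, NPAT and up to 6 called genes of each list, and members near 0.5 CPM. Other genes were named after their values were seen.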

Additional observations from a re-analysis of the deposited data

Results flagged for a closer look

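HIST1H3E and HIST3H2BB are listed because the change in LAD2 coculture against LAD2 alone differed from that in HT-29 coculture against HT-29 alone in a test of the difference itself. Both genes reached 0.5 CPM in LAD2 alone only, and the LAD2 alone values enter the difference, so their choice was not independent of it. They are 2 of 25 kept genes, or 8%, near the 7.11% called lower over all genes. For HIST1H3E, an H3 gene, the difference was -1.48 on the log2 scale (edgeR, adjusted p = 0.0109). It had 1.06 CPM in LAD2 coculture and 2.18 ± 0.256 CPM in LAD2 alone, against 0.722 ± 0.308 CPM in HT-29 coculture and 0.484 ± 0.202 CPM in HT-29 alone. Over the 13 alternatives its call was lost in 2, DESeq2 (-1.60, adjusted p = 0.0737) and without the first HT-29 coculture library.

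For HIST3H2BB, an H2B gene, the difference was -1.33 (edgeR, adjusted p = 0.0133). It had 2.52 CPM in LAD2 coculture and 3.92 ± 0.266 CPM in LAD2 alone, against 0.587 ± 0.205 CPM in HT-29 coculture and 0.323 ± 0.0519 CPM in HT-29 alone. Over the 13 alternatives its call was lost in 4, DESeq2 (-1.48, adjusted p = 0.0515), without the second HT-29 alone or the second HT-29 coculture library, and after subtraction of the other line's RNA (-1.26, adjusted p = 0.0572). The HT-29 side of these differences rests on few counts. HIST1H3E had 31, 16 and 8 counts in HT-29 coculture and 5, 19 and 11 counts in HT-29 alone. HIST3H2BB had 12, 19 and 10 counts in HT-29 coculture and 7, 9 and 6 counts in HT-29 alone. LAD2 RNA at 1.11% would add 0.0434 CPM of HIST3H2BB and 0.0242 CPM of HIST1H3E to HT-29 coculture at the levels of LAD2 alone.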

How the results depend on the processing

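No member changed direction while called. In HT-29, 0 members were called higher and 0 lower under each of 11 alternatives. Between the lines alone, 19 to 22 members were called higher in LAD2 and 0 lower under each of 10. In LAD2 coculture the number of members that fell was 5 with edgeR, with RLE factors and without the filter, 0 with DESeq2, 2 after subtraction of the other line's RNA, and 3 to 5 with 1 LAD2 alone library left out. For the difference of responses the number of members lower was 2, against 3 with RLE factors, 0 with DESeq2, 5 without the filter, 1 after subtraction and 1 to 5 with 1 library left out. The number higher was 0, and 0 to 1 with 1 library left out, the gene being HIST1H2BK without the second HT-29 alone, the first HT-29 coculture or the third LAD2 alone library (0.39, 0.39 and 0.35). The cause of these changes was not tested.

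Over all genes, the difference gave 5877 higher and 1240 lower, against 3343 and 1763 with RLE factors, 2818 and 1265 with DESeq2, 1744 and 2109 without the filter and 1997 and 611 after subtraction. LAD2 coculture gave 2230 higher and 1068 lower, against 1391 and 400 with DESeq2, 902 and 681 after subtraction, 1825 and 674 without the first LAD2 alone library and 2773 and 1674 without the third. HT-29 coculture gave 820 higher and 413 lower, against 633 and 173 with DESeq2, 236 and 196 after subtraction and 656 and 269 without the second HT-29 alone library.

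With the replicate number as a block, 0 members rose and 0 fell in HT-29 coculture, where all genes gave 876 higher and 522 lower, and 19 were higher in LAD2 alone, so that the replicate block changed no member count. Deviations of same-numbered HT-29 libraries correlated at 0.0622, 0.0470 and 0.0749 over 10261 genes. Each library correlated best with its own number, a hint from the data and not the design. Between the lines alone the values were 0.0176, -0.0131 and -0.0258. No paired analysis was possible for LAD2 coculture or the difference because LAD2 coculture had 1 distinct library. Depth limits the members near the threshold, where 0.5 CPM is few counts, and with 1 coculture library the LAD2 results have no replicate check.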

Other observations

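Of the 71 histone genes, 10 share more than 95% of their 75-base stretches with other genes. They had at most 6 counts in any library, and 5 of them had none. How reads that match several genes were counted is not given in the sources used here. Among the 25 genes kept, HIST1H2BK alone shared more than 50% of its stretches, and 13 shared none.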
